A study of Homo sapiens with 6 samples.

Results

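The endoplasmic reticulum (ER) folds and modifies proteins bound for the cell surface, for secretion or for other membrane compartments. Described here are 34 genes of ER folding and degradation, chosen by name from a list of chaperones, folding enzymes, degradation factors and stress sensors. All 34 were found among the 25662 gene symbols of the deposited table, and all 34 passed the filter on low values. They were measured in HCT116, a cell line long established from a human colorectal carcinoma and grown in serum-containing McCoy's medium. The 3 control libraries came from cells given DMSO, the solvent, and carry 0 h in their titles. The 3 treated libraries came from cells exposed for 24 h to 1 µM BMH-21. This compound slots into DNA and blocks RNA polymerase I, which makes the precursor of ribosomal RNA. If the controls were collected at 0 h, time in culture and the drug cannot be told apart. All libraries come from a single cell line, and the replicates are described as biological.

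Inside the ER, new chains enter through the SEC61 channel and are met by the Hsp70 chaperone BiP, by lectin chaperones that bind sugar-tagged chains, and by enzymes that form and shuffle disulfide bonds. Chains that fail to fold are passed back to the cytosol by a ubiquitin ligase complex, a route called ER-associated degradation. The membrane proteins ATF6, IRE1 (encoded by ERN1) and PERK (encoded by EIF2AK3) sense unfolded chains and, through the transcription factors ATF6, XBP1 and ATF4, raise the genes of folding and degradation. Much of that control acts through short promoter sequences called ER stress response elements.

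Values are TPM, a gene's length-corrected share of the transcripts of its library, so levels can be compared between genes but sequencing depth is unknown. Because a share is measured, fewer transcripts per cell cannot be told apart from more of other transcripts, nor fewer cells of a type from less RNA per cell. Between 11509 and 12001 genes per library reached 1 TPM. Control replicate 1 and BMH-21 replicate 3 stood apart, with mean squared log2 deviations from their group means of 0.0586 and 0.0696, where the remaining libraries had 0.0274 to 0.0331. Their transcripts from the mitochondrial genome took 25.8% and 26.1% of TPM, against 20.3% to 21.6% elsewhere. The epithelial markers EPCAM, CDH1, KRT8, KRT18, KRT19 and CLDN4 summed to 5340 to 5579 TPM in controls and 11638 to 13219 TPM after BMH-21. Most of that rise was in KRT8, KRT18 and KRT19. CDH1 had control and BMH-21 means of 21.6 and 21.4 TPM, CLDN4 of 213.3 and 233.3 TPM, and EPCAM of 97.5 and 139.3 TPM. Of the fibroblast markers, COL1A2, DCN and LUM were listed at 0 in every library and the list of 6 summed to 3.77 to 4.89 TPM in controls and 1.88 to 3.73 TPM after BMH-21. The 5 leukocyte markers in the table summed to 3.73 to 4.75 TPM in controls and 0.86 to 1.74 TPM after BMH-21. Most of that fall was in CD68, with means of 3.61 and 0.52 TPM, while ITGAM rose from 0.097 to 0.41 TPM. The 6 endothelial markers summed to 0.16 to 0.19 TPM and 0.22 to 0.23 TPM. The part of these shifts in the results was not tested. CDKN1A and MDM2, targets of p53 read as a check of the labels, had control means of 220.4 ± 11.4 and 9.59 ± 3.88 TPM and BMH-21 means of 2341 ± 49.6 and 87.5 ± 12.8 TPM (SD, n = 3).

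After BMH-21, transcripts of HERPUD1, XBP1, the small luminal proteins SDF2L1, MANF and CRELD2, calreticulin and the isomerase family members P4HB, ERP29 and PDIA6 were lower, while those of ATF6 and the J-domain protein DNAJC10 were higher. The BiP gene HSPA5 was not called in either direction. By limma on log2(TPM + 1) with Benjamini-Hochberg adjustment over all genes kept, the adjusted p was under 0.05 for 12 of the 34 genes as lower and for 7 as higher, leaving 15 without a call. Among all 12041 genes kept, 16.9% were called lower and 19.4% higher. Thus 35.3% of the ER genes were lower and 20.6% were higher, the second share being close to that of all genes. With a trimmed mean scaling or medians of ratios, 14 were lower and 4 higher. Of all genes, 2475 and 2493 were then lower and 2344 and 2342 higher, against 2040 and 2340 in the main fit. When either control replicate 2 or BMH-21 replicate 1 was removed, 9 were lower and 4 higher. Of all genes, 1521 and 1565 were then lower and 1859 and 1783 higher. The median log2 fold change of the 34 genes was -0.19, against 0.06 for all genes kept. The largest fall was that of HERPUD1 (-1.38) and the largest rise that of DNAJC10 (0.97). The groups did not overlap for 16 of the 34, 7 with BMH-21 above and 9 with BMH-21 below, against 51.5%, 29.6% and 22% of all genes kept.

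Summed over the 34 genes, controls held 3418, 3829 and 3820.4 TPM, and BMH-21 libraries held 2724, 2729 and 3092 TPM. Every control sum lay above every BMH-21 sum, and the mean sum was 0.77 of the control mean. P4HB and CALR were the most abundant members. Their transcripts made up 18.0% and 20.5% of the control sum, and their part of the net difference between the groups was 32.5% and 24.6%. Without P4HB and CALR, the sums were 2038, 2387 and 2388 TPM in controls and 1794, 1778 and 2160 TPM after BMH-21, and there the groups overlapped through control replicate 1 and BMH-21 replicate 3.

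**Figure D1:**
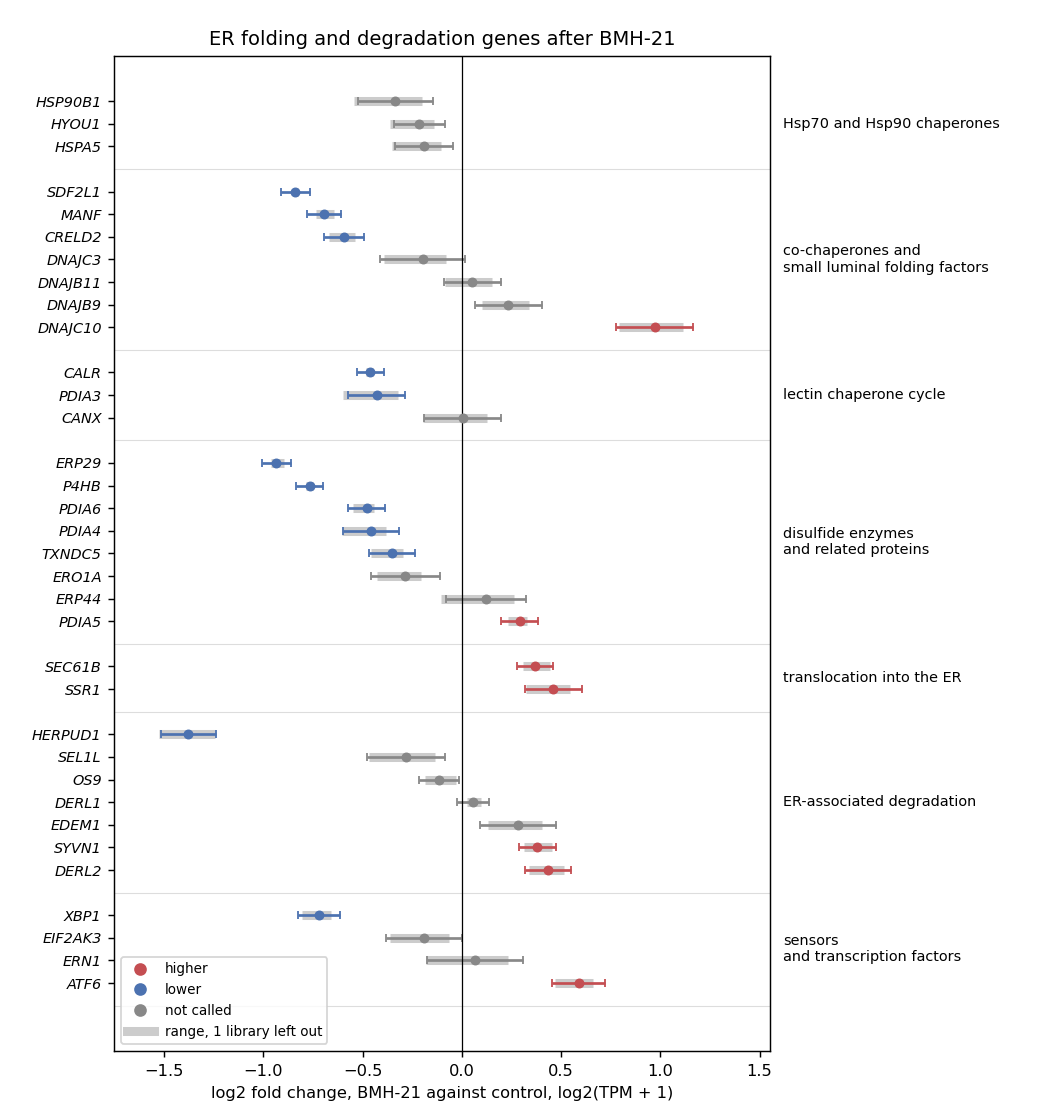
Log2 fold change of each of the 34 genes (x axis, BMH-21 against control on the log2(TPM + 1) scale) with its standard error as a whisker, grouped by role on the y axis. Colours give the limma call, and grey bars the range of the fold change when 1 library is left out. HERPUD1 lies farthest to the left at -1.38 and DNAJC10 farthest to the right at 0.97, while the bars of CANX, ERP44, DNAJB11 and ERN1 cross 0.

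The 34 genes differed in how much they depended on the 2 libraries that stood apart. Control replicate 1 was the lowest control for 29 of the 34 genes (63.2% of all genes kept), and BMH-21 replicate 3 was the highest of its group for 26 (65.3% of all genes kept). For 22 genes both held. Across the 34 genes, the longest annotated coding transcript and the deviation of control replicate 1 from the other controls had a Spearman correlation of -0.69, and the length and the fold change one of 0.52. The GC content of that transcript had a Spearman correlation of 0.69 with the same deviation and -0.46 with the fold change. These are descriptions over genes of the same libraries. With a trend in length and GC content removed, 17 of the 34 genes were lower and 7 higher. Counts over all genes are not given for that setting, so these counts are not read as a result about the ER genes. With these 2 libraries left out, 20 of the 34 genes were lower and 7 higher, in a setting where 34.4% of all genes were lower and 24.2% higher. The median of the 34 was then -0.45. The 2 libraries were picked for their deviation in these same data, so leaving them out narrows the spread within groups by that choice. Calls gained in that setting are described only and are not taken as support. Of the main calls, 9 lower genes and 2 higher genes passed in the same direction in all 18 alternative settings. The lower ones were HERPUD1, ERP29, SDF2L1, P4HB, XBP1, MANF, CRELD2, PDIA6 and CALR, and the higher ones DNAJC10 and ATF6. For those 9 lower genes the groups also did not overlap. The share of all genes kept that passed in all 18 settings was not counted, so these counts have no background to be read against.

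**Figure D2:**
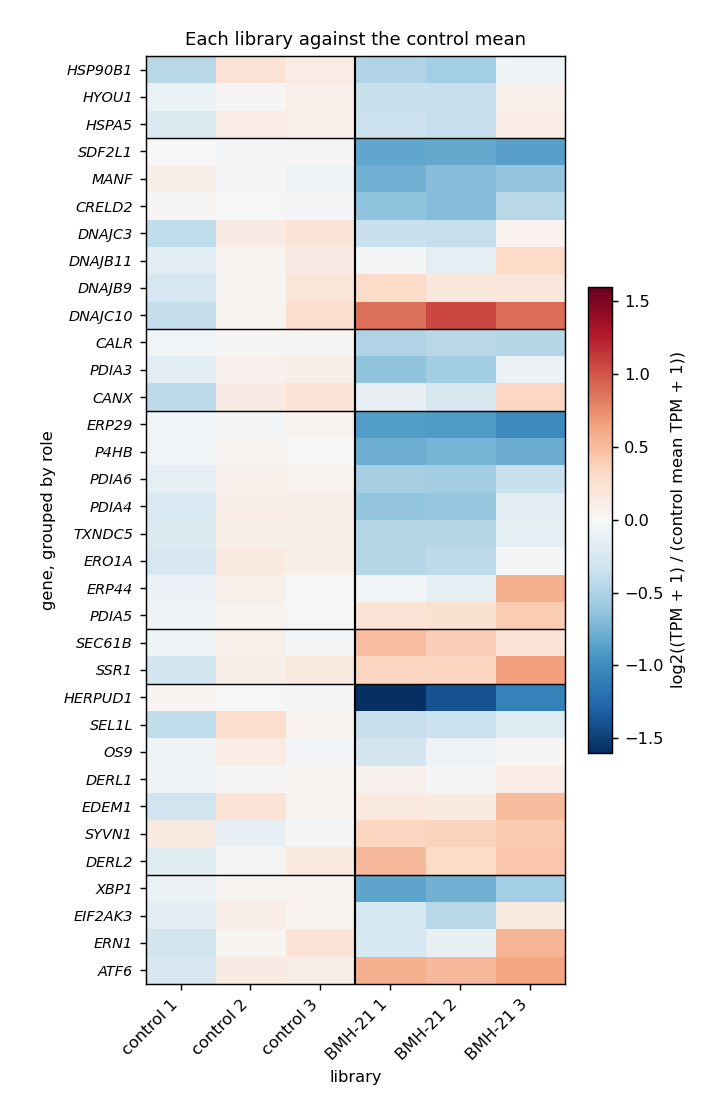
Log2 ratio of each library's TPM + 1 to the control mean TPM + 1 (colour) for the 34 genes (rows, grouped by role) in the 6 libraries (columns). The rows of SDF2L1, P4HB, ERP29 and HERPUD1 are blue in all 3 BMH-21 libraries, whereas HSPA5, CANX and HSP90B1 are paler or red in BMH-21 replicate 3 than in the other 2 and blue in control replicate 1.

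The promoters are shown first, since the members differ in whether they hold a copy of an ER stress response element. RefSeq promoter windows of GRCh38.p14, from 250 bases before to 50 bases after each annotated start, were found for 32 of the 34 genes (PDIA3 and DERL1 had none in the table). They were searched on both strands for exact matches to 4 sequences. These were the ER stress response element, ERSE (CCAAT, 9 bases of any kind, then CCACG), its second form, ERSE-II (ATTGG, 1 base of any kind, then CCACG), the core TGACGTG of the unfolded protein response element bound by XBP1, and an ATF-type element (TGATGNAAT). ERSE matched in 7 of the 32 genes and in 0.0916% of all 27305 symbols in the promoter table. ERSE-II matched in 3 of the 32 and in 0.0696% of all symbols. TGACGTG matched in HYOU1, DNAJC10 and TXNDC5, and in 2.40% of all symbols. TGATGNAAT matched in none of the 32 and in 1.22% of all symbols. The matches to ERSE and ERSE-II are given below because they divide the members into a set with and a set without the element. Each is read 5′ to 3′ on the strand of its gene, and capitals mark the fixed letters of the element or of its reverse complement.
HSPA5, chr9:125241391-125241409, minus strand: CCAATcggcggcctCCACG
HSP90B1, chr12:103930216-103930234, plus strand: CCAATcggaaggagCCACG
HSP90B1, chr12:103930321-103930339, plus strand: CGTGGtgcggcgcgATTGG
CRELD2, chr22:49918554-49918572, plus strand: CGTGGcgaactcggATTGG
CALR, chr19:12938384-12938402, plus strand: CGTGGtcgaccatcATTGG
CANX, chr5:179698778-179698796, plus strand: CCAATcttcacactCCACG
PDIA6, chr2:10812853-10812871, minus strand: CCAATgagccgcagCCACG
XBP1, chr22:28800603-28800621, minus strand: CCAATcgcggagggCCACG
HYOU1, chr11:119057274-119057284, minus strand: CGTGGtCCAAT
HYOU1, chr11:119057380-119057390, minus strand: CGTGGtCCAAT
SDF2L1, chr22:21642114-21642124, plus strand: CGTGGaCCAAT
HERPUD1, chr16:56932025-56932035, plus strand: ATTGGgCCACG

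In HYOU1 the TGACGTG match overlaps the ERSE-II match at 119057380. Of the 10 genes with either element, 6 were lower by limma, none was higher (0 also at an unadjusted p under 0.05), and 4 did not pass. Of the 22 genes with neither in the window, 5 were lower and 7 higher, with 10 not called. The median log2 fold change of these ER genes was -0.47 with an element and 0.06 without. By the counts above, all 7 higher genes were in the second, larger set. Outside the 34 genes, 17 kept genes had either element, of which 4 were lower and none higher by limma, and 5 and 2 at an unadjusted p under 0.05. Their median log2 fold change was -0.02. The motifs were chosen with earlier results of these data known. For the 5 members with more than 1 window, a match in any window was counted. No test was made of these counts, a match is not shown to be a used site, and a missing match says only that these exact letters are not in the windows searched.

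**Figure D3:**
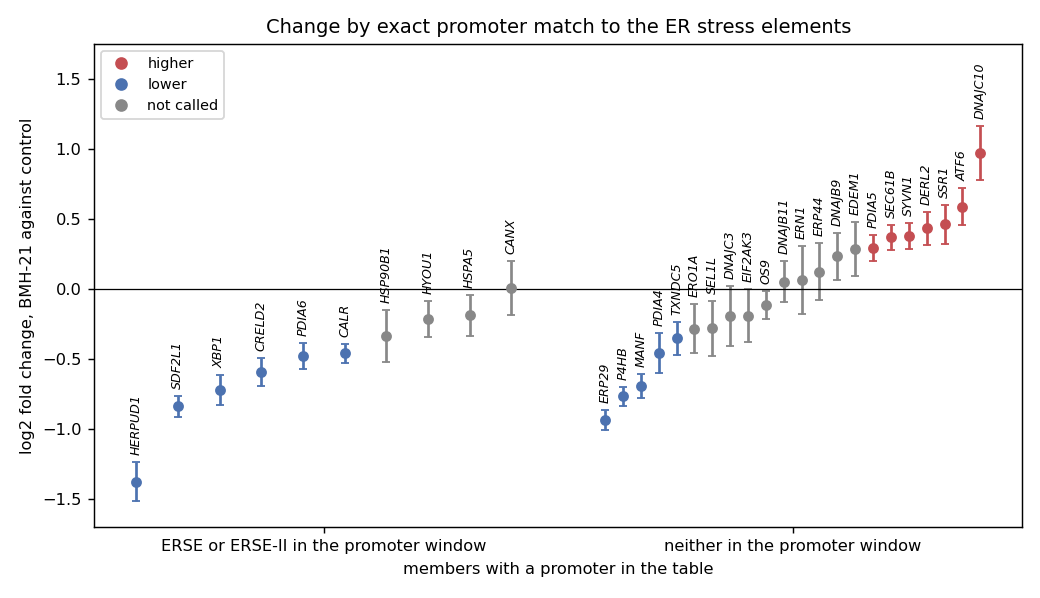
Log2 fold change with standard error (y axis) of the 32 genes with a promoter window, split by an exact ERSE or ERSE-II match (x axis), and coloured by the limma call. The 10 genes with an element run from -1.38 for HERPUD1 to 0.00 for CANX, and the 22 without from -0.94 for ERP29 to 0.97 for DNAJC10.

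To show the context of a match beside a large fall, a moderate fall and no call, the windows of HERPUD1, XBP1 and HSPA5 are given whole, with the fixed letters of ERSE or ERSE-II in capitals. They lie at chr16:56931892-56932191 on the plus strand, chr22:28800520-28800819 on the minus strand and chr9:125241294-125241593 on the minus strand of GRCh38.p14.
HERPUD1: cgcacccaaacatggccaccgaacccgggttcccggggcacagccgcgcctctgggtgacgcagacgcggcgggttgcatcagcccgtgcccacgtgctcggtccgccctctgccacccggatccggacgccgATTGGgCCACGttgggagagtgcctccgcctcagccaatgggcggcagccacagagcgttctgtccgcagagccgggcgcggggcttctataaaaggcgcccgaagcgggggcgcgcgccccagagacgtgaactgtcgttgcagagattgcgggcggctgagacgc
XBP1: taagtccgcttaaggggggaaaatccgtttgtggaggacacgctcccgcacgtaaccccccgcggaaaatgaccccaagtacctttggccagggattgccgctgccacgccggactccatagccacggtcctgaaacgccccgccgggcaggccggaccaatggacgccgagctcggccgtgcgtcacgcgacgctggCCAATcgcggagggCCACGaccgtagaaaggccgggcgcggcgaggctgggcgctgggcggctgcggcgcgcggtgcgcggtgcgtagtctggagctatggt
HSPA5: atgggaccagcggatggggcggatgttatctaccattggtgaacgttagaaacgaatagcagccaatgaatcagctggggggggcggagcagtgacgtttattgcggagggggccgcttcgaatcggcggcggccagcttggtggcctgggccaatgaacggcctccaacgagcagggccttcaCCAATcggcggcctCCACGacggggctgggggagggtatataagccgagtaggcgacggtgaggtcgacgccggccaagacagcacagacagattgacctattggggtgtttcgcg

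The sensors and their transcription factors went in different directions. XBP1 encodes the transcription factor made when IRE1 splices its messenger RNA, a step that gene-level values do not resolve (chromosome 22, 28794555 to 28800597). It was at 48.2, 54.0 and 54.3 TPM in controls and 28.5, 30.2 and 35.3 TPM after BMH-21. All 3 treated libraries were below all controls, and XBP1 fell by 0.72 on the log2 scale (SE 0.11, limma adjusted p = 0.0010). ATF6, the membrane-bound transcription factor that is cut in the Golgi under stress (chromosome 1, 161766294 to 161964070), moved the other way. Its TPM was 11.8, 15.6 and 15.2 in controls and 21.6, 20.9 and 22.6 after BMH-21, with no overlap. That rise was 0.59 on the log2 scale (SE 0.13, limma adjusted p = 0.0087). The 2 sensor kinases had low levels and were not called. ERN1, which encodes IRE1, was at 2.21, 3.03 and 3.58 TPM in controls and 2.25, 2.64 and 4.75 TPM after BMH-21. EIF2AK3, which encodes PERK, was at 1.67, 2.26 and 2.15 TPM in controls and 1.48, 1.22 and 2.35 TPM after BMH-21. Both sets of values overlapped, with log2 fold changes of 0.07 (SE 0.24) for ERN1 and -0.19 (SE 0.19) for EIF2AK3. Leaving out both deviating libraries, a choice made from these same data, EIF2AK3 passed as lower at -0.45 (limma adjusted p = 0.022).

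The 3 main chaperones of the lumen had lower means after BMH-21, and limma called 0 of them, also at an unadjusted p under 0.05. HSPA5 encodes BiP, the ER Hsp70, which also keeps the stress sensors silent (chromosome 9, 125234853 to 125241330; promoter shown above). It was at 192, 244 and 239 TPM in controls and 176, 174 and 245 TPM after BMH-21. BMH-21 replicate 3 lay above every control, so the groups overlapped, and the log2 fold change was -0.19 (SE 0.15, limma adjusted p = 0.34). HSP90B1, the ER Hsp90 known as GRP94, had means of 92.6 ± 22 and 72.4 ± 13.6 TPM, and HYOU1, which reloads BiP with nucleotide, 83.3 ± 5.72 and 72.4 ± 13.6 TPM (SD, n = 3). Their log2 fold changes were -0.34 and -0.21. The calls of these chaperones differed between settings. Without BMH-21 replicate 3, HSPA5 passed as lower at -0.35 (limma adjusted p = 0.035) and HYOU1 at -0.36 (adjusted p = 0.0083). Without control replicate 1, HSP90B1 passed at -0.54 (adjusted p = 0.029), as it did at -0.39 with a trimmed mean scaling (adjusted p = 0.041). With all 6 libraries and the length and GC trend removed, HSPA5 passed at -0.22 (limma adjusted p = 0.033) and HSP90B1 at -0.41 (adjusted p = 0.018).

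Among co-chaperones and small luminal folding factors, 3 of 7 genes were lower and 1 was higher. SDF2L1 encodes a small luminal protein that works with the co-chaperone DNAJB11 (chromosome 22, 21642261 to 21644298). It was at 82.0, 81.2 and 82.8 TPM in controls and 45.8, 46.0 and 44.4 TPM after BMH-21, so the groups were far apart relative to their spread. SDF2L1 fell by 0.84 on the log2 scale (SE 0.07, limma adjusted p = 4.6e-05). MANF, a luminal protein that binds BiP and can be secreted, was at 86.2, 80.1 and 76.1 TPM in controls and 47.1, 49.4 and 52.1 TPM after BMH-21. MANF fell by 0.69 on the log2 scale (SE 0.08, limma adjusted p = 0.00035). CRELD2, a stress-inducible luminal protein, had a control mean of 39.96 ± 0.56 TPM and a BMH-21 mean of 26.2 ± 2.62 TPM (SD, n = 3). CRELD2 fell by 0.59 on the log2 scale (limma adjusted p = 0.0020), and 168 of its exonic bases are shared with ALG12 on the other strand.

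DNAJC10 encodes ERdj5, a J-domain protein that also reduces disulfide bonds of chains on their way to degradation (chromosome 2, 182716041 to 182794464). Its TPM was 2.15, 3.27 and 3.95 in controls and 6.58, 7.64 and 6.66 after BMH-21. All treated libraries were above all controls, with a 2.23-fold ratio of means, and DNAJC10 rose by 0.97 on the log2 scale (SE 0.20, limma adjusted p = 0.0051). The annotation places a ribosomal protein pseudogene, RPL31P15, over 338 exonic bases of DNAJC10, so reads from that sequence could be counted here. The other J-domain genes, DNAJB9, DNAJB11 and DNAJC3, were not called, at log2 fold changes of 0.23, 0.05 and -0.20. Mean levels of DNAJB9 and DNAJC3 were under 4 TPM in either group, while DNAJB11 was at 27.2 ± 3.05 and 28.4 ± 5.16 TPM. DNAJC3 passed as lower without both deviating libraries (limma adjusted p = 0.0062) and with the length and GC trend removed (adjusted p = 0.038).

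Within the lectin chaperone cycle, the soluble and the membrane-bound lectin differed. CALR, the soluble calreticulin (chromosome 19, 12938578 to 12944489), was at 735, 763 and 768 TPM in controls and 543, 554 and 548 TPM after BMH-21. These values did not overlap, and CALR fell by 0.46 on the log2 scale (SE 0.07, limma adjusted p = 0.00098). CANX, its membrane-bound counterpart calnexin, had means of 174 ± 39.1 and 174 ± 39.5 TPM (SD, n = 3). Its groups overlapped widely, and limma gave 0.00 on the log2 scale (SE 0.19, adjusted p = 0.99). Leaving out both deviating libraries, CANX passed as lower at -0.37 (adjusted p = 0.0027). PDIA3, the disulfide isomerase that works with both lectins, was at 233, 276 and 279.6 TPM in controls and 167, 178 and 246 TPM after BMH-21. It overlapped through BMH-21 replicate 3 and passed narrowly as lower at -0.43 (SE 0.15, limma adjusted p = 0.047). The PDIA3 call was lost when control replicate 2, control replicate 3, BMH-21 replicate 1 or BMH-21 replicate 2 was left out, at adjusted p = 0.12 to 0.15. Its pseudogene copy PDIA3P1 was at 1.28 to 2.13 TPM.

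Of the 8 disulfide enzymes and related proteins, 5 were lower and 1 was higher. ERP29 encodes a chaperone of the disulfide isomerase family that lacks the usual active site (chromosome 12, 112013316 to 112023451). It was at 179, 181 and 191 TPM in controls and 98.8, 97.5 and 90.5 TPM after BMH-21. With every treated library below every control, ERP29 fell by 0.94 on the log2 scale (SE 0.07, limma adjusted p = 2.4e-05). P4HB, the classical protein disulfide isomerase and a subunit of collagen prolyl hydroxylase (chromosome 17, 81843159 to 81860694), was at 644, 679.6 and 664 TPM in controls. After BMH-21 it was at 387, 397 and 383 TPM. P4HB fell by 0.77 on the log2 scale (SE 0.07, limma adjusted p = 4.7e-05), and its groups did not overlap. PDIA6, another isomerase of the family, was at 97.8, 114 and 113 TPM in controls and 74.7, 73.2 and 84.3 TPM after BMH-21 (log2 fold change -0.48, limma adjusted p = 0.0044). It shares 1033 exonic bases with ATP6V1C2 on the other strand, which had a mean of 2.47 TPM.

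The isomerases PDIA4 and TXNDC5 had log2 fold changes of -0.46 and -0.35 with overlapping groups, and both passed narrowly (limma adjusted p = 0.035 and 0.046). Both calls were lost when control replicate 2, control replicate 3, BMH-21 replicate 1 or BMH-21 replicate 2 was left out, at adjusted p = 0.11 for PDIA4 and 0.14 for TXNDC5. PDIA5, a less studied isomerase, was the higher one, at 34.1 ± 1.28 and 42.1 ± 3.21 TPM (SD, n = 3). PDIA5 rose by 0.29 on the log2 scale (limma adjusted p = 0.037). That call was lost without any 1 of the libraries other than BMH-21 replicate 3, at adjusted p = 0.061 to 0.10, and with a trimmed mean scaling (adjusted p = 0.083). PDIA5 shares 490 exonic bases with SEC22A on the same strand, at a mean of 10.2 TPM. ERO1A, the oxidase that recharges disulfide isomerase, and ERP44, which retrieves proteins from the secretory route, were not called. Their log2 fold changes were -0.28 and 0.12. ERO1A passed as lower at -0.34 with a trimmed mean scaling or medians of ratios (limma adjusted p = 0.049), without both deviating libraries (adjusted p = 0.0012) and with the length and GC trend removed (adjusted p = 0.0039).

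**Figure D4:**
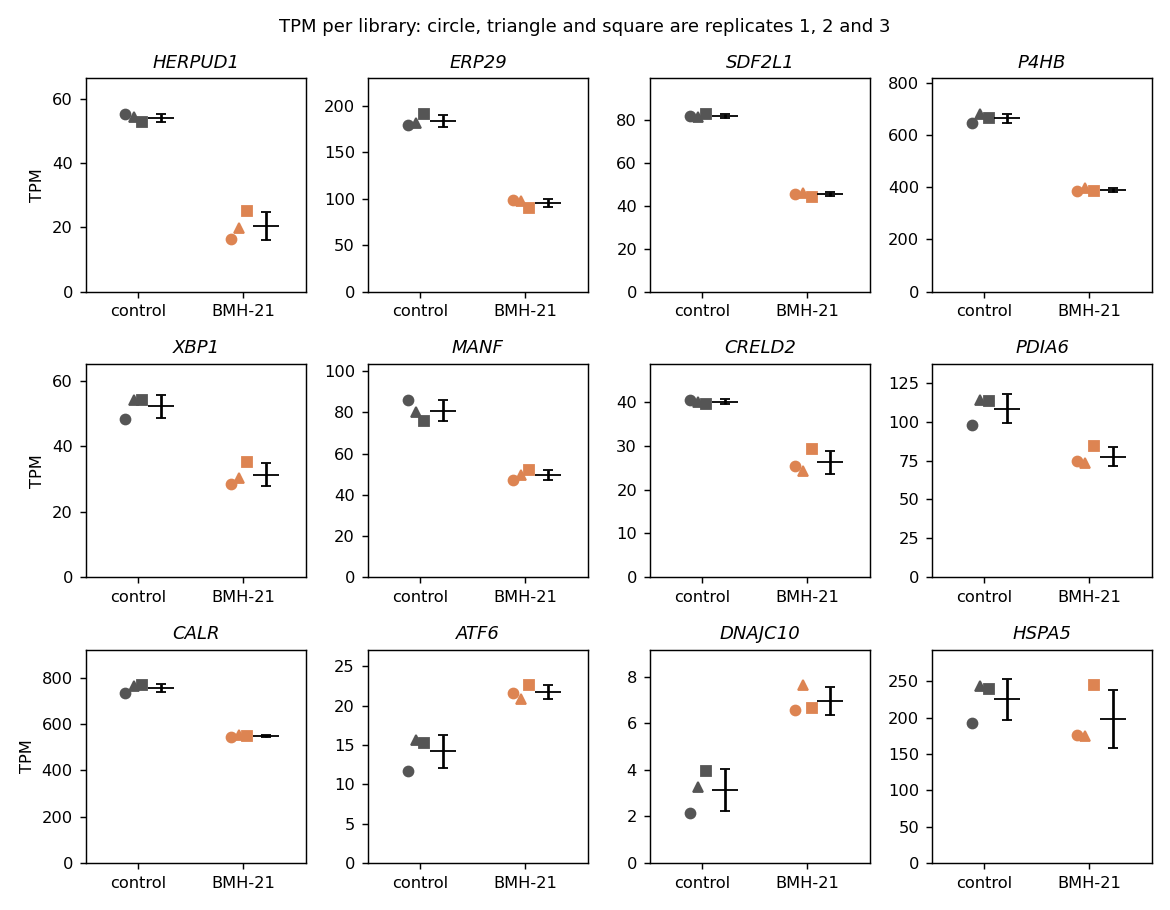
TPM (y axis, from 0) in each library of the control and BMH-21 groups for the 11 genes called in every setting and for HSPA5, with the group mean and SD as a bar beside the points. In the first 9 panels every BMH-21 library lies below every control, in ATF6 and DNAJC10 above, and in HSPA5 the square of BMH-21 replicate 3 at 245 TPM lies above the controls.

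Both members of the translocation route were higher. SEC61B, the beta subunit of the SEC61 channel (chromosome 9, 99222064 to 99230615), was at 139, 154 and 144 TPM in controls and 205, 192 and 169.7 TPM after BMH-21. Its groups did not overlap, and it rose by 0.37 on the log2 scale (SE 0.09, limma adjusted p = 0.012). SSR1, the alpha subunit of the translocon-associated complex TRAP (chromosome 6, 7268306 to 7347446), was at 27.7, 36.4 and 38.1 TPM in controls and 43.7, 43.4 and 54.2 TPM after BMH-21. These groups did not overlap either, and SSR1 rose by 0.46 on the log2 scale (SE 0.14, limma adjusted p = 0.033). With a trimmed mean scaling SEC61B missed the threshold (adjusted p = 0.10). SSR1 missed it without control replicate 1, BMH-21 replicate 1, BMH-21 replicate 2 or BMH-21 replicate 3 (adjusted p = 0.054 to 0.079).

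In ER-associated degradation, 1 of 7 genes was lower, 2 were higher and 4 did not pass. HERPUD1 encodes a membrane protein with a ubiquitin-like domain that helps to assemble the degradation complex (chromosome 16, 56932048 to 56944863; promoter shown above). It was at 55.3, 54.4 and 52.8 TPM in controls and 16.6, 19.9 and 24.97 TPM after BMH-21. Every treated library was below the controls, the control mean was 2.64-fold the BMH-21 mean, and HERPUD1 fell by 1.38 on the log2 scale (SE 0.14, limma adjusted p = 0.00011). DERL2, a derlin of the exit channel (chromosome 17, 5471251 to 5486811), was at 24.3, 28.3 and 31.4 TPM in controls and 40.4, 35.2 and 38.4 TPM after BMH-21. DERL2 rose by 0.43 on the log2 scale (SE 0.12, limma adjusted p = 0.019) with no overlap. It missed the threshold without control replicate 2 (adjusted p = 0.052) or BMH-21 replicate 1 (adjusted p = 0.071).

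SYVN1, the ubiquitin ligase HRD1 (chromosome 11, 65121780 to 65134533), was at 49.5, 40.7 and 44.3 TPM in controls and 57.3, 57.8 and 60.4 TPM after BMH-21. The groups did not overlap, and SYVN1 rose by 0.38 on the log2 scale (SE 0.09, limma adjusted p = 0.013). It missed the threshold without control replicate 2 (adjusted p = 0.064) and with a trimmed mean scaling (adjusted p = 0.079). SYVN1 shares 398 exonic bases on the same strand with FAU, a ribosomal protein gene at a mean of 1702 TPM, and 356 with MRPL49 on the other strand, so its level is uncertain. SEL1L, the partner of the ligase, and EDEM1, which marks chains by trimming sugars, were at mean levels under 4 TPM and were not called. SEL1L passed as lower without both deviating libraries (limma adjusted p = 0.012) and with the length and GC trend removed (adjusted p = 0.014). OS9, a lectin that delivers chains, and DERL1, the other derlin, were also not called, at -0.12 and 0.06.

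Beyond the 34 genes, 110 kept genes of 5 further lists of the same pathways were examined, of which 25 were lower and 15 higher by limma, 22.7% and 13.6%, against 16.9% and 19.4% of all genes kept. The share called in either direction was 36.4% both in these lists and in all genes kept. Their median log2 fold change was -0.01. Without both deviating libraries, 48 were lower and 23 higher, while 16 were lower without control replicate 2, control replicate 3 or BMH-21 replicate 2, with 11, 12 and 9 higher. In the list of other sensor branch and output genes, 6 of 19 were lower (31.6%) and 1 was higher (5.26%). CREB3L4, a membrane-bound relative of ATF6, fell by 1.78 on the log2 scale, from 12.3 ± 0.16 to 2.87 ± 0.23 TPM (SD, n = 3; limma adjusted p = 2.5e-05). ATF4, the transcription factor downstream of PERK, fell by 1.35, and TRAF2, an adaptor that binds active IRE1, fell by 1.27.

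Other chaperones and glycoprotein folding factors had 6 of 27 genes lower (22.2%) and 5 higher (18.5%). CNPY3, a co-chaperone of GRP94, fell by 0.99 on the log2 scale, and PRKCSH, the beta subunit of glucosidase II, which feeds the lectin cycle, fell by 0.98, from 340.4 ± 17.5 to 172 ± 14.2 TPM (SD, n = 3). FKBP14, a prolyl isomerase of the lumen, rose by 0.94 from a control mean of 1.05 TPM. Other translocon, signal peptidase and oligosaccharyltransferase genes had 8 of 27 lower (29.6%) and 3 higher (11.1%). SEC11C, a catalytic subunit of signal peptidase, rose by 0.97, and SEC62, a translocation factor, by 0.78, while SSR2, the beta subunit of TRAP, fell by 0.79 (limma adjusted p = 0.00015). Other degradation factors had 4 of 25 lower (16.0%) and 5 higher (20.0%), close to the shares of all genes. FAM8A1, a cofactor of the HRD1 ligase, and RNF139, another ER ubiquitin ligase, rose by 0.86 and 0.81, and TMUB1 fell by 0.60. Of 12 other disulfide enzymes, TXNDC12 fell by 0.66, SELENOF rose by 0.39 and 10 did not pass.

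From partners or paralogs of which 1 gene rose and the other fell, 4 pairs were picked, and they are not all such pairs. They were chosen for that after their values were seen and are described as ratios within a library. No single factor per library can change such a ratio, but an adjustment that differs between genes, such as that for length and GC content, can. An exact permutation test over the 6 libraries gave p = 0.1 for each ratio, the smallest it can give. For pairs chosen this way that test cannot serve as support. Of the other TRAP subunits, SSR3 fell by 0.23, as SSR2 did and against SSR1, and SSR4 was not called at 0.32. In signal peptidase, SPCS1, SPCS2 and SEC11A fell by 0.49, 0.37 and 0.34, while SEC11C rose by 0.97. The TPM ratio of SSR1 to SSR2, both subunits of TRAP, was 0.11 to 0.15 in controls and 0.29 to 0.42 after BMH-21. The ratio of SEC61B to SEC61G, both small subunits of the channel, was 0.72 to 0.91 in controls and 1.42 to 1.49 after BMH-21. For SYVN1 to HERPUD1, which act in the same degradation complex, it was 0.75 to 0.90 in controls and 2.42 to 3.46 after BMH-21. For ATF6 to its paralog ATF6B it was 0.40 to 0.49 in controls and 0.89 to 1.07 after BMH-21. The choice of the pairs fixed the direction of these differences. The level of SYVN1 is uncertain, since SYVN1 shares exonic bases on the same strand with FAU. The differences in mean log2 ratio were 1.27, 0.83, 1.81 and 1.15 in that order. SEC61G and ATF6B, at log2 fold changes of -0.46 and -0.50, and SSR3, SSR4, SPCS1, SPCS2 and SEC11A were also named after their values were seen.

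**Figure D5:**
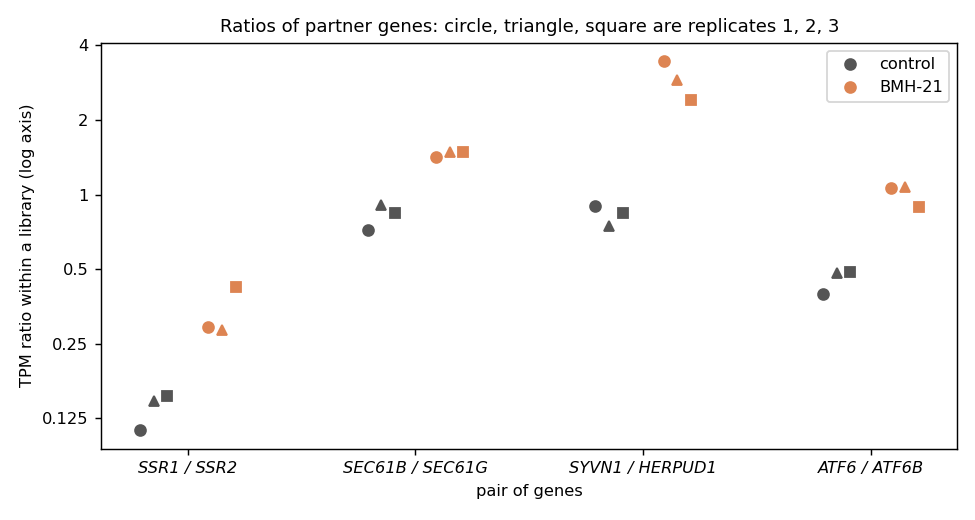
TPM ratio of 4 pairs of genes (y axis, log axis) in each of the 3 control and 3 BMH-21 libraries (points, with shapes for the replicates). The pairs were chosen because their genes moved apart, and the widest gap is that of SYVN1 over HERPUD1, at 0.75 to 0.90 against 2.42 to 3.46. The level of SYVN1 is uncertain because of exonic bases shared with FAU.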

How the data were processed

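RNA of HCT116 cells was sequenced in 3 control and 3 BMH-21 libraries. The deposited values are TPM per gene, made by the authors, with 1 column a library. Per the submitters' processing notes, the tools STAR and Salmon and the build GRCh38 were involved, with no role stated. The sources used here give no annotation, strand setting, filter or depth, so no counting interval is given. The labels name polyA RNA and also removal of ribosomal RNA. They call the replicates biological without naming separate cultures, so p-values measure the spread between these libraries, which may be technical.

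A gene was kept if 3 or more of the 6 libraries had 1 TPM or more (12041 genes). limma 3.58.1 in R 4.3.3 was fitted to log2(TPM + 1), with an intensity trend, no covariate, two-sided tests and Benjamini-Hochberg adjustment over all genes kept. Such fold changes understate the change of low genes. The fit was tested on simulated data. The members, lists, motifs and tests were chosen with earlier results of these data known. All 34 members are accounted for by role; each library is printed for up to 3 called members of a role with the largest change, and for HSPA5, HERPUD1, XBP1, ATF6, ERN1 and EIF2AK3. From each further list, up to 3 called genes with the largest change are named. Gene coordinates are those of GENCODE release 29 (GRCh38), 1-based. Promoters are RefSeq windows. Alternatives covered the pseudocount, filter, scaling, variance trend, replicate block, left-out libraries and, added after seeing the data, a length and GC trend. The pair of libraries left out together was picked for its deviation in these same data.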

Additional observations from a re-analysis of the deposited data

How the results depend on the processing

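Over 18 alternatives, the main counts of 12 lower and 7 higher ER genes moved as follows. Counts lower stayed between 9 and 14 with 1 library left out, and rose to 20 with control replicate 1 and BMH-21 replicate 3 both left out, where 4144 of all genes were lower, and where 48 genes of the further lists were lower and 23 higher. Counts higher ran from 4 to 6 with 1 library left out, and were 4 with a trimmed mean scaling and 4 with medians of ratios, both with 14 lower. Of all genes, 2023, 1521 and 1517 were lower without control replicate 1, 2 and 3 in turn, and 1565 without BMH-21 replicate 1. Those higher were 1885, 1859, 1802 and 1783 in that order, against 2040 lower and 2340 higher in the main fit. Counts over all genes without BMH-21 replicate 2 or 3 are not given here. The median log2 fold change of the ER genes ran from -0.34 to -0.13 with 1 library left out and was -0.45 with both left out. Genes of the further lists ran from 16 to 29 lower and 9 to 17 higher with 1 library left out. With the length and GC trend removed, 28 of them were higher. Their count lower in that setting is not given here, so the 28 is not read as a shift upward. In the same setting, 17 ER genes were lower and 7 higher. Counts over all genes are not given for that setting. Without the filter 9 were lower and 6 higher (PDIA3, PDIA4, TXNDC5 and SSR1 lost), without the intensity trend 9 and 5 (PDIA5 lost too), and without mitochondrial genes 10 and 6 (PDIA3, TXNDC5 and PDIA5 lost). Among all genes, 1926 of 21753 were lower and 2018 higher without the filter. Without the intensity trend, 1939 of 12041 were lower and 2230 higher, and without mitochondrial genes 1999 of 12539 and 2227. Of 606 gene and setting pairs, 299 kept a call, 43 lost one, 20 gained one and 244 had none in either. Changes of sign, 22 in all, concern genes not called in the main result, of which CANX gained a call without both libraries. For DNAJB11 and CANX the values were -0.0051 and -0.054 with the trimmed mean, -0.0067 and -0.056 with medians of ratios, -0.04 and -0.19 without control replicate 1, -0.085 and -0.17 without BMH-21 replicate 3, -0.17 and -0.37 without both, and -0.14 and -0.085 with the trend removed. For DERL1 they were -0.0023, -0.0040, -0.0050 and -0.011 with the trimmed mean, medians of ratios, both libraries left out and the trend removed. For ERP44 they were -0.10, -0.15 and -0.037 without BMH-21 replicate 3, without both and with the trend removed. For ERN1 they were -0.07, -0.18 and -0.32 without control replicate 1, without BMH-21 replicate 3 and without both. With 1 library left out, the highest values were 0.15 for DNAJB11, 0.13 for CANX, 0.26 for ERP44 and 0.23 for ERN1. The causes were not tested. With the replicate block 12 were lower and 6 higher, PDIA5 being lost (limma adjusted p = 0.072). Of all 12041 genes kept, 2105 were then lower and 2503 higher, more than the 2040 and 2340 of the main fit. Same-numbered libraries had correlations of their deviations of 0.04, -0.14 and 0.02, and other pairs had -0.098 to 0.12. Not every library correlated best with its own number. No shared effect of the number was seen in these correlations, although the fit with the replicate block called more of all genes. Such values cannot show whether the libraries were paired. Depth is unknown, so no limit of detection is given.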
